A study of Mus musculus with 4 samples.

Results

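Bone morphogenetic proteins (BMPs) are secreted ligands that instruct mesenchymal cells to form bone, cartilage and fat. A ligand joins type I and type II serine/threonine kinase receptors at the cell surface, and the type II receptor activates the type I receptor. The receptor then phosphorylates SMAD proteins, which enter the nucleus with SMAD4 and act at SMAD sites in target genes, of which the Id genes are the classic examples. Extracellular antagonists such as gremlin trap the ligand, whereas SMAD6 blocks the signal inside the cell.

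The chromatin of 10 BMP signalling genes was examined in mouse mesenchymal stem/stromal cells (MSCs), which the labels call bone-marrow MSCs and the study released from bone fragments. They were the ligands Bmp2 and Bmp4, the type I receptors Bmpr1a and Bmpr1b, the type II receptor Bmpr2, the inhibitors Smad6 and Grem1, and the targets Id1, Id2 and Id3. All ATAC-seq peaks that touched a gene or the 10 kb on either side of it (GENCODE M21) were taken, which gave 73 of the 128055 peaks in the table. Receptors held 54 of them, inhibitors 9, Id genes 7 and ligands 3. Bmpr1a, with 22 peaks, and Bmpr1b, with 26, are long genes (92.6 and 332 kb) and so dominated any count over peaks.

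The question was how oxygen in culture changes accessible chromatin. The cells came from the hind-limb bones of wild-type male C57BL/6 N mice aged 3 to 5 months, were sorted as CD45-/Ter-119-/Sca-1+/CD140a+, and were grown in 2% O2 (hypoxia) or 21% O2 (normoxia). Per the study all cells were first expanded in hypoxia and divided between the oxygen levels after the sort, whereas the labels place the sort after culture at either level. There were 2 libraries per group, which the study describes as biologically independent experiments. No group carried a mutation or a drug, and the same medium was used at both oxygen levels. In ATAC-seq, the Tn5 transposase cuts open DNA, and the reads in a peak measure its accessibility. In such bulk samples, fewer cells with an open site and less opening in each cell cannot be told apart.

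Each deposited value is a whole number of reads in a peak times 1 factor per library, and a peak's width is not divided out. The values were taken to be per 10000000 reads of that library, a scale that was assumed. On that reading the libraries held 26680936 to 29965523 reads, and the shares given next rest on it too. Between 49.2% and 53.2% of the reads lay in nuclear peaks in hypoxia, against 31.0% to 35.2% in normoxia. The mitochondrial share was 7.77% to 9.13% against 1.5% to 2.34%. The deposited values fell in normoxia over the whole table, with a median log2 fold change (normoxia over hypoxia) of -0.44. RLE size factors, which centre the typical peak, brought this median to -0.004. Both scales are given below, since they answer different questions and which scale fits these libraries was not tested. Promoter peaks were found for both genes used in the sort, Pdgfra and Ly6a, and for 7 of 7 mesenchymal markers. Among the blood markers, Ptprc, Itgam and Cd3e had no promoter peak, while 4 others had one, and of 5 endothelial markers 3 had one, with none at Cdh5 or Emcn. The summed promoter values were 161 to 172 in hypoxia and 115 to 132 in normoxia for the blood list, and 92.7 to 96.6 and 58.5 to 75.4 for the endothelial list. Those for the 7 mesenchymal markers were 1812 to 2029 and 1048 to 1094. The part of other cells in the results was not tested.

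The best-known element through which BMP-activated SMADs act on Id genes joins a GC-rich stretch to a SMAD site at a fixed spacing, GGCGCCNNNNNGTCT. This motif and 2 shorter ones were searched, on both strands, in the 3000 bases upstream of the first annotated start of the 8 member genes that have an entry in the RefSeq promoter table (Bmp2 and Id1 have none). The composite element occurred upstream of Id2 and Id3 and of no other member searched. Of 21938 protein-coding genes, 0.178% held it in the same window. Bmp2 and Id1 entered only this share, and whether they hold the element is not given. At Id2 and Id3 it lay inside the promoter peak, 1728 bases upstream of the Id2 start and 2957 bases upstream of the Id3 start. The stretches are shown because they place the element within the accessible region, with the element in capitals and 50 bases on each side (GRCm38, the assembly behind mm10, 5′ to 3′ on the gene's strand). They are chr12:25098804-25098918 on the minus strand and chr4:136140490-136140604 on the plus strand.
Id2 composite element: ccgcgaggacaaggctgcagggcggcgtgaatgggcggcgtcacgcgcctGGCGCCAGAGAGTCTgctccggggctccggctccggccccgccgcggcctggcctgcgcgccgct
Id3 composite element: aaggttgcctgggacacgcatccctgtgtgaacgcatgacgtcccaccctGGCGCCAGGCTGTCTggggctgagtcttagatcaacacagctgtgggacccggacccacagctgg

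The GC-rich stretch alone, GGCGCC, is contained in the composite element and was present in 5 of the 8 windows (Bmpr2, Smad6, Grem1, Id2 and Id3), against 22.4% of all windows. The core of the hypoxia response element, ACGTG, was present in 6 of 8 windows, against 73.4% of all windows, and was not found in those of Grem1 and Id3. A match is a description of letters and not of a bound site.

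The 250 bases in front of Bmpr2, Bmpr1a and Bmp4 are shown because these genes had contrasting promoters in the data. The receptor stretches lie within strong promoter peaks that had the lowest fold changes among the promoters, while the Bmp4 stretch lies outside every peak. They are chr1:59763150-59763399 (plus strand) and chr14:34503342-34503591 (minus strand) in front of the GENCODE starts of Bmpr2 and Bmpr1a, read from GRCm38, and chr14:46390670-46390919 (minus strand) from the RefSeq promoter of Bmp4 (GRCm38.p6). Capitals mark GGCGCC and, on either strand, ACGTG, which both strands of CACGTG contain.
Bmpr2 promoter: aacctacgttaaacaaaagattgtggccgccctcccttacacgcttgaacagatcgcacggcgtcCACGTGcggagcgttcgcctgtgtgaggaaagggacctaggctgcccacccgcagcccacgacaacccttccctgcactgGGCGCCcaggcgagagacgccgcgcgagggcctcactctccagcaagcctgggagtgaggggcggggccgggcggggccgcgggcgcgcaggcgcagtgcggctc
Bmpr1a promoter: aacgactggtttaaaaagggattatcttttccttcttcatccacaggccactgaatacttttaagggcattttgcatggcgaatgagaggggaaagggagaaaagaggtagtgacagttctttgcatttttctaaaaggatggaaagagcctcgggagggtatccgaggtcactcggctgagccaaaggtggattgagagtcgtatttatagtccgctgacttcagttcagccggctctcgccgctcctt
Bmp4 promoter: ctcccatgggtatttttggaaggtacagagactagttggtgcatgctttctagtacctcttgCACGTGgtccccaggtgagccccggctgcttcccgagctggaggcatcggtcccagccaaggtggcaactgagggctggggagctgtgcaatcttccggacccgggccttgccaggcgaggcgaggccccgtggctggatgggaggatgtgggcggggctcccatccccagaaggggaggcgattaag
The GC content was 68.8% in the Bmpr2 stretch, 47.2% in that of Bmpr1a and 63.2% in that of Bmp4, with 27, 10 and 11 CpG dinucleotides. The value for Bmpr1a depends on the start chosen. Its RefSeq promoter, chr14:34502497-34502796 within the same peak, had a GC content of 79.3% and 48 CpG dinucleotides. A high GC content was thus seen both in a promoter with a strong peak and in one with none. Over their full width, the 10 member promoter peaks had a median GC content of 51.0%, against 52.0% for all promoter peaks, and a median observed over expected CpG ratio of 0.62 against 0.49.

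On the deposited scale, BMP gene promoters were less accessible in normoxia, as most promoters were. All 10 promoter peaks, which belong to 9 of the 10 genes, had both normoxia libraries below both hypoxia libraries. This was also so for 86.0% of all promoter peaks. The normoxia mean ranged from 0.51 of the hypoxia mean at Bmpr1a to 0.80 at Id3. Of the 10, 7 passed the test (limma, FDR under 0.01), against 60.6% of all promoter peaks, and their median log2 fold change was -0.79 against -0.73. Over all 73 peaks, both normoxia libraries were below both hypoxia libraries at 46 and above them at 6, against 59.5% and 6.94% of all peaks, and 19 were called lower and 0 higher, against 24.0% and 0.391% of all peaks. The BMP genes thus shared the general fall and did not stand out from it by count or median.

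**Figure D1:**
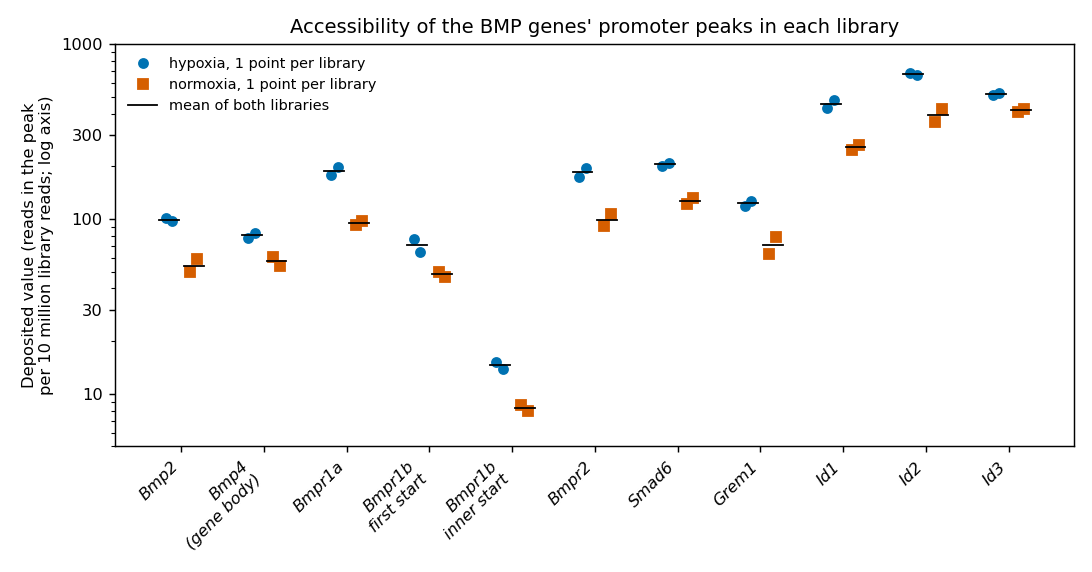
Deposited values of the 10 promoter peaks and of the Bmp4 gene-body peak on a log axis, 1 point per library (2 hypoxia and 2 normoxia libraries) with bars at the group means. The normoxia points lie below the hypoxia points at every peak, and the distance is smallest at Id3, where the hypoxia libraries reached 514 and 526 and the normoxia libraries 411 and 424.

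After RLE scaling, 1 of 73 peaks was called lower in normoxia, the Bmpr1a promoter, and 0 were called higher, against 4.57% and 1.77% of all peaks. By position, this was 1 of 10 promoter peaks, where 16.7% of all promoter peaks were called lower and 0.441% higher, and 0 of 63 others, against 2.64% and 1.98% of all peaks outside promoters. At an unadjusted p under 0.05 there were 16 (11 lower and 5 higher), where 29.4% of all peaks were below this level. The median log2 fold change of the 73 peaks was -0.0002, against -0.004 for all peaks. It was -0.31 for the 10 promoter peaks and 0.03 for the other 63, against -0.27 and 0.05 for all promoter and all other peaks. Both normoxia libraries were below both hypoxia libraries at 20 peaks and above them at 20, against 29.6% and 27.4% of all peaks. Among the promoter peaks these were 8 and 1 of 10, against 60.3% and 10.3% of all promoter peaks. The single call was lost when either hypoxia library was left out, as were all calls over the whole table. By edgeR's quasi-likelihood test 1 peak was lower and 0 higher on the deposited values, where 4384 and 674 of all peaks were. On whole reads 2 were lower and 1 higher, where 7296 and 3257 of all peaks were.

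**Figure D2:**
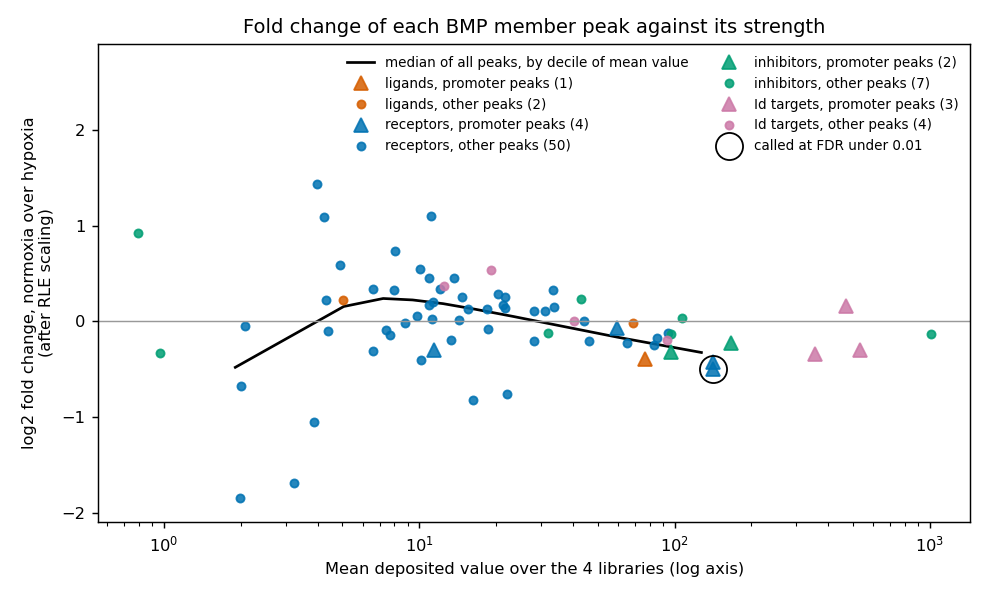
Log2 fold change (normoxia over hypoxia, after RLE scaling) of the 73 member peaks against their mean deposited value (log axis), coloured by role, with the median of all peaks in each decile of mean value as a line. Promoter peaks (triangles) lie among the strong peaks, where the line falls to -0.33, and the Id3 promoter, at 0.16, lies above it; the ring marks the called Bmpr1a promoter, whose neighbour within the ring is the Bmpr2 promoter, which was not called.

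The fold change of a peak depended on its strength across the table. The median over all peaks after RLE scaling was 0.24 in the third decile of mean value and -0.33 in the strongest. In the strongest decile 28.4% of peaks were called lower. Of the member peaks, 14 were in this decile and 6 in the weakest. Members are read below against this background, and not against 0 alone.

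Among the ligands, Bmp2, an osteogenic factor, had a promoter peak of moderate strength at chr2:133550001-133555400. Its deposited values were 101.2 and 96.9 in hypoxia against 49.5 and 58.7 in normoxia. Both normoxia libraries were thus lower, without overlap. The log2 fold change was -0.87 on the deposited scale (adjusted p = 9.4e-05) and -0.39 ± 0.14 (SE) after RLE scaling (adjusted p = 0.053), so that the call was made on the former scale and not on the latter. Its second peak, 3.4 kb past the gene end, was weak (4.25 and 6.46 against 3.37 and 6.01), and its groups overlapped.

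Bmp4, a close relative of Bmp2, had a different layout. No peak lay within 1 kb of a start of its protein-coding transcripts. Its single peak, chr14:46384901-46389200, covered coding and untranslated exons within the gene and also overlapped the antisense gene Gm15222. The values were 77.8 and 83.0 in hypoxia against 60.7 and 53.7 in normoxia. The groups did not overlap as deposited, but after RLE scaling they did, and the log2 fold change was -0.01 ± 0.15 (adjusted p = 0.97).

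Bmpr1a, a type I receptor widely used by BMP2 and BMP4, had the lowest fold change of all 10 promoter peaks. The peak, chr14:34499401-34504400, overlaps the first exons and the antisense gene Gm17110. It had values of 178 and 197 in hypoxia against 92.2 and 97.1 in normoxia. After RLE scaling these became 157 and 160 against 114 and 110, so that the groups stayed apart. The log2 fold change was -0.50 ± 0.12 (adjusted p = 0.0042), and -0.98 as deposited (adjusted p = 6.1e-06). It was between -0.18 and -0.21 and not called under quantile, cyclic loess and equal-total scaling (adjusted p from 0.17 to 0.33), and between -0.47 and -0.53 when single libraries were left out. This member showed the only call after RLE scaling, yet 34.4% of all promoter peaks in the strongest decile were called lower as well.

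On the upstream side, the Bmpr1a promoter was flanked by regions that the authors' peak caller assigned to hypoxia only. The 300-bp shoulder that adjoins the promoter, chr14:34504401-34504700, had 3.89 and 3.74 in hypoxia against 0.00 and 0.33 in normoxia. A 400-bp shoulder 6.2 kb upstream of the start had 5.66 and 5.78 against 1.12 and 0.33. Both were open in the hypoxia libraries and close to empty in the normoxia libraries, at a few reads each. The assignment used these same libraries, so the low normoxia values came with it and are no separate result. Both are in the weakest decile of mean value, where 6949 of 12805 peaks were hypoxia only and the median was -0.48. As a description, the log2 fold changes of the shoulders were -1.85 ± 0.50 (adjusted p = 0.0115) and -1.69 ± 0.47 (adjusted p = 0.0137), neither of which passed the threshold. The strong upstream peak next to the latter, chr14:34507201-34509300, was at 102 and 125 against 66.7 and 83.1, with a log2 fold change of -0.12 ± 0.13 (adjusted p = 0.58). In all, 5 of the 73 member peaks were assigned to hypoxia only, 3 of them at Bmpr1a, against 6.84% of all peaks, and this assignment used the same libraries.

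Within the gene, the remaining Bmpr1a peaks went in both directions, with 11 negative and 11 positive log2 fold changes over its 22 peaks. The lowest intronic value, -0.83 ± 0.25, was at chr14:34449401-34450600 (25.5 and 21.4 against 8.25 and 10.01; adjusted p = 0.022). The highest, 1.43 ± 0.43, was at the weak intronic peak chr14:34497301-34497600 (3.18 and 1.36 against 6.75 and 4.67; adjusted p = 0.021). At each, the groups did not overlap. None of the 21 passed the threshold, and 2 of them, past the 3′ end, also lay over the neighbouring gene Mmrn2.

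Bmpr1b, the type I receptor best known from cartilage and limb patterning, had 2 promoter peaks. At the first start, chr3:142168101-142170300 had values of 76.8 and 64.6 in hypoxia against 49.5 and 46.7 in normoxia. The groups were apart as deposited and overlapped after RLE scaling, where the log2 fold change was -0.07 ± 0.16 (adjusted p = 0.81). The second promoter peak, chr3:141981701-141982600, at a start deep in the gene, was weaker, with 15.2 and 13.9 against 8.62 and 8.01. Its log2 fold change was -0.30 ± 0.28 (adjusted p = 0.497). Both promoter peaks of this receptor were thus uncalled, also as deposited (adjusted p = 0.017 and 0.036). A further start, at chr3:141931523, had no peak within 1 kb.

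The other 24 Bmpr1b peaks had 12 negative and 12 positive log2 fold changes. The strongest 3 of these were chr3:141940601-141941800 (97.0 and 109 against 51.3 and 75.1), chr3:142048901-142052000 (89.2 and 121 against 65.2 and 66.4) and chr3:141866801-141869100 (71.8 and 90.8 against 47.6 and 51.4). They resembled one another, with -0.25, -0.18 and -0.22 after RLE scaling, and each was called lower as deposited. The first 2 are in the strongest decile of mean value, where 85.6% of all peaks were called lower as deposited. The third is in decile 9, where 7240 of 12805 were. The medians of all peaks after RLE scaling were -0.33 and -0.16 in these deciles. The intronic peak chr3:141903001-141903700 went the other way, with 5.66 and 11.6 in hypoxia against 12.7 and 14.3 in normoxia. Both normoxia libraries were higher, and the log2 fold change was 1.10 ± 0.29 (adjusted p = 0.0104), just short of the threshold. It was called higher in 4 of 16 alternatives, among them edgeR on whole reads (adjusted p = 0.0067) and equal-total scaling (adjusted p = 0.0021). It was not called as deposited (0.67, adjusted p = 0.075), under cyclic loess (0.88, adjusted p = 0.059) or quantile scaling (adjusted p = 0.058), or by edgeR on the values (adjusted p = 0.10), and it was between 0.69 and 1.49 when single libraries were left out.

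**Figure D3:**
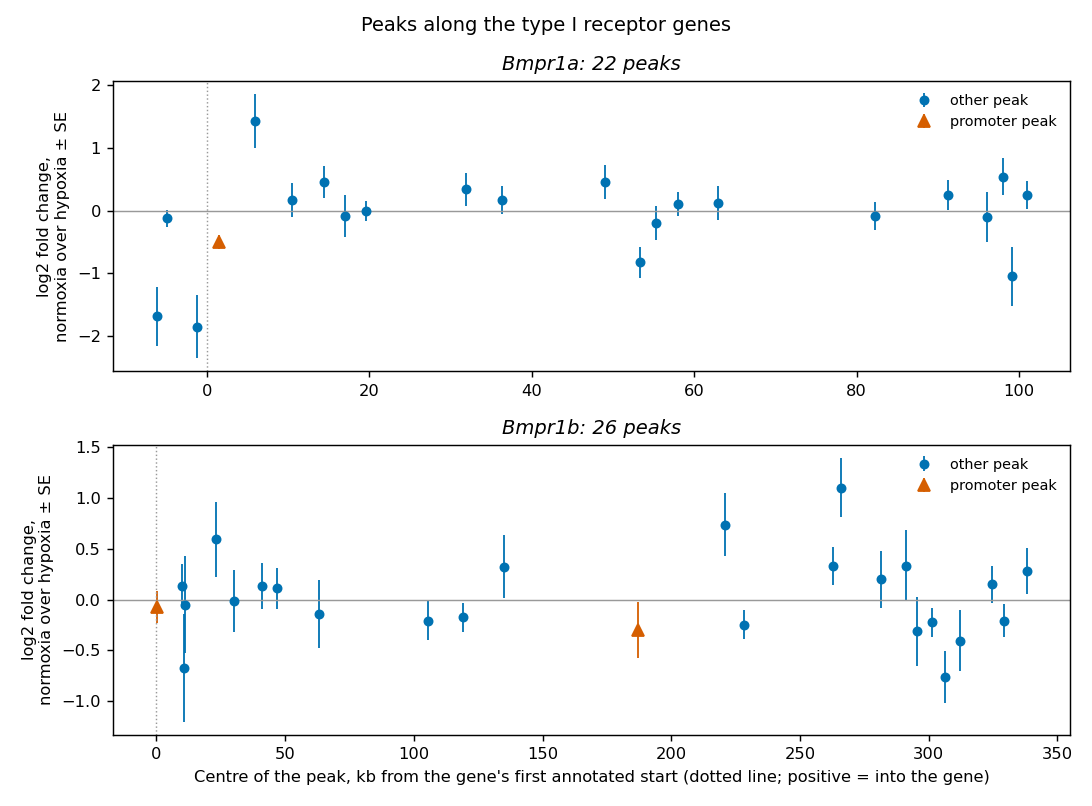
Log2 fold change ± SE (normoxia over hypoxia, after RLE scaling; 2 libraries per group) of each peak at Bmpr1a and Bmpr1b against the distance of its centre from the gene's first start in kb. Promoter peaks are triangles, and values above and below 0 alternate along both genes. The Bmpr1a promoter at -0.50 lies between the hypoxia-only shoulders at -1.85 and -1.69 and the intronic peak at 1.43. The shoulders were assigned to hypoxia only from these same libraries.

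Bmpr2, the type II receptor, had a promoter peak of the same strength as Bmpr1a. The peak at chr1:59762101-59765800 had 174 and 197 in hypoxia against 91.5 and 106 in normoxia. The groups were apart on both scales. The log2 fold change was -0.90 as deposited (adjusted p = 2.5e-05) and -0.42 ± 0.12 after RLE scaling (adjusted p = 0.0141). Its other 5 peaks were all weak and all positive after RLE scaling, from 0.02 to 1.09, and none was called. They lie in deciles 2, 4 and 5 of mean value, where the medians of all peaks were 0.15, 0.22 and 0.18. As deposited 4 of the 5 were negative, and under cyclic loess their median was -0.16. Among these 5 peaks, the intronic peak chr1:59833701-59834000 was at 3.18 and 2.72 in hypoxia against 6.37 and 4.67 in normoxia.

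Among the inhibitors, Smad6, an inhibitory SMAD that is itself induced by BMP, had the widest accessible domain of the 10 genes. A single peak of 53.4 kb, chr9:63940101-63993500, spanned the 3′ part of the gene and the region past it. It had 1200.3 and 1234 in hypoxia against 714 and 886 in normoxia. The groups did not overlap, and the log2 fold change was -0.61 as deposited (adjusted p = 0.00093) and -0.13 ± 0.08 after RLE scaling (adjusted p = 0.25). Under cyclic loess the sign turned and the peak was called higher, at 0.46.

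The Smad6 promoter peak, chr9:64020701-64024600, had 201 and 209.8 in hypoxia against 122 and 131 in normoxia. The groups were apart on both scales, with a log2 fold change of -0.70 as deposited (adjusted p = 0.00065) and -0.22 ± 0.11 after RLE scaling (adjusted p = 0.18). Of the 2 peaks in between, chr9:63997201-64002200 (121 and 113 against 77.2 and 75.4) was at -0.13 and chr9:64016101-64019700 (46.0 and 46.9 against 40.5 and 38.4) at 0.24 after RLE scaling. Nearest to the promoter, the latter thus had the highest of the 4 values at this gene.

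Grem1, which encodes the secreted BMP antagonist gremlin 1, had a promoter peak at chr2:113756601-113760700 with 119 and 127 in hypoxia against 63.3 and 78.4 in normoxia. The groups were apart on both scales, with a log2 fold change of -0.79 as deposited (adjusted p = 0.00026) and -0.32 ± 0.13 after RLE scaling (adjusted p = 0.098). A strong peak 6.7 kb upstream, chr2:113763901-113766700, was at 113 and 132 against 76.5 and 105. It was not below its hypoxia level after scaling, at 0.03 ± 0.13 (adjusted p = 0.90). The strong upstream and promoter peaks of this antagonist thus had log2 fold changes of 0.03 and -0.32, a difference that was not tested.

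The Id genes encode helix-loop-helix proteins that lack a DNA-binding region and hold back differentiation factors by binding to them. These short genes (1.16, 3.34 and 2.26 kb) were covered by broad peaks of 9.4 to 11.3 kb, the widest promoter peaks among the members. At Id1, chr2:152733501-152742900 had 429 and 479.7 in hypoxia against 248 and 266 in normoxia. At Id2, chr12:25091301-25102000 had 679 and 667 against 359 and 425. At Id3, chr4:136139201-136150500 had 514 and 526 against 411 and 424. The groups did not overlap at any of the 3 as deposited, and the gap was narrowest at Id3.

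After RLE scaling, Id1 and Id2 stayed lower in normoxia (378 and 391 against 306 and 300.2 for Id1, 599 and 543 against 443 and 480.2 for Id2), whereas Id3 was higher in both normoxia libraries (453 and 428 against 507 and 479). The log2 fold changes were -0.34 ± 0.09 for Id1 (adjusted p = 0.0128), -0.31 ± 0.09 for Id2 (adjusted p = 0.0169) and 0.16 ± 0.09 for Id3 (adjusted p = 0.22), and none passed the threshold. Id3 was the only promoter peak among the 10 with a positive value, where 1.52% of all promoter peaks in the strongest decile had both normoxia libraries above both hypoxia libraries. Its direction depended on the scale, with -0.32 as deposited (adjusted p = 0.11) against 0.45, 0.52 and 0.66 under equal-total, quantile and cyclic loess scaling, where it was called higher. The composite SMAD element shown above is present at both Id2 and Id3, and its part in these values was not tested.

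**Figure D4:**
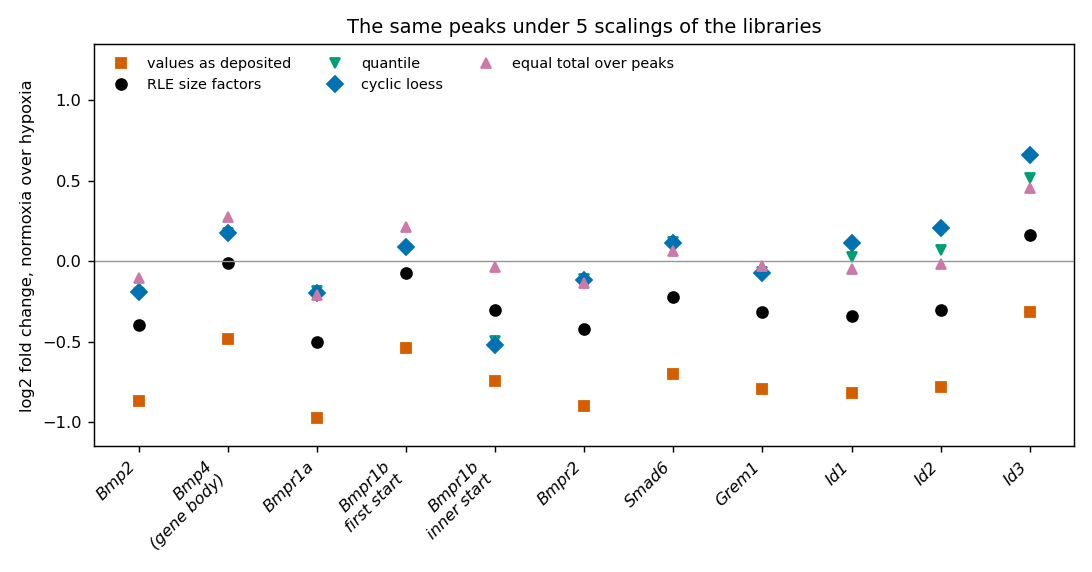
Log2 fold change (normoxia over hypoxia) of the 10 promoter peaks and the Bmp4 gene-body peak under 5 scalings of the libraries. Id3 is the highest in all 5 (from -0.32 as deposited to 0.66 under cyclic loess), and the values of every gene move with the scaling.

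A ratio of 2 peaks within a library is not changed by a scaling that applies 1 factor to the whole library, although it does move under cyclic loess or quantile scaling. As a description, some promoters were divided by that of Id3, which was chosen for its high fold change, so that the ratios had to fall and nothing was tested. The log2 ratio of Id2 to Id3 was 0.40 and 0.34 in hypoxia against -0.19 and 0.003 in normoxia. That of Bmpr1a to Id3 was -1.53 and -1.42 in hypoxia against -2.16 and -2.13 in normoxia.

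Per kb of peak, the order of the promoters by deposited value also differed between the groups. In hypoxia the Id2 promoter was the most accessible (62.9 per kb), followed by Smad6 (52.7), Bmpr2 (50.03), Id1 (48.3) and Id3 (46.0), with Bmpr1a at 37.4, Bmpr1b at 32.1, Grem1 at 29.9 and Bmp2 at 18.3. Neighbours from Smad6 to Id3, and Bmpr1b and Grem1, overlapped in their libraries, so that their order was within the spread. In normoxia Id3 (37.0) and Id2 (36.7) overlapped at the top, ahead of Smad6 (32.4), and Id1 (27.3) and Bmpr2 (26.7) also overlapped. The Id genes, Smad6 and Bmpr2 thus made up the first 5 of the 10 promoter peaks in both groups, and the ligand Bmp2 ranked 9.

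By role, the median log2 fold change of the promoter peaks after RLE scaling was -0.39 for the ligand Bmp2 (1 peak), -0.36 for receptors (4), -0.27 for inhibitors (2) and -0.31 for Id genes (3). Single peaks among the receptors and the Id genes differed by more than these medians did, from -0.50 to -0.07 among receptors and from -0.34 to 0.16 among Id genes. Outside promoters the medians were 0.10 (2 peaks), 0.08 (50), -0.13 (7) and 0.18 (4). With 1 to 4 promoters per role, these are descriptions and no role was set apart by a test. The nearest peaks beyond the spans were 10.2 to 33.2 kb from their genes. The only one of these to be called was the peak 33.2 kb past the end of Bmpr2, with a mean of 173 in hypoxia and 86.1 in normoxia (-0.52, adjusted p = 0.0041), while the last Bmpr2 peak inside the span, 6.8 kb past the end, was at 0.02.

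The wider pathway was taken as 45 further genes with 347 peaks, of which Hjv (listed as Hfe2) alone had none. After RLE scaling 13 of these peaks were lower and 3 higher, where 4.57% and 1.77% of all peaks were. Of the 51 promoter peaks 8 were lower and 0 higher, against 16.7% and 0.441% of all promoter peaks. Among the other receptors and co-receptors, 3 of 14 promoter peaks were lower. The co-receptor Rgmb had 327 and 368 in hypoxia against 132 and 176 in normoxia (-0.71 ± 0.11, adjusted p = 6.6e-05), and the type I receptor Acvr1 was at -0.53 (adjusted p = 0.00034) and the type II receptor Acvr2a at -0.59 (adjusted p = 0.0017). A start of the gene Upp2 also lay within 1 kb of the Acvr1 peak. Among the other signal transducers 1 of 5 was lower, Smad4, the shared partner of the receptor-activated SMADs, with 179 and 175 against 74.2 and 96.4 (-0.58, adjusted p = 0.0019).

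Among the other ligands 1 of 9 promoter peaks was lower, that of Gdf6 (-0.79, adjusted p = 0.0020). Among the other intracellular or membrane inhibitors 1 of 7 was lower, that of Smurf1, a ubiquitin ligase for SMADs (-0.55, adjusted p = 0.0028). Among the other secreted antagonists 2 of 11 were lower, those of chordin (Chrd, -0.54, adjusted p = 0.0047) and noggin (Nog, -0.46, adjusted p = 0.0083), and among the other target genes 0 of 5. A start of the gene Thpo also lay within 1 kb of the Chrd peak. Outside promoters 5 peaks were lower and 3 higher, where 2.64% and 1.98% of all peaks outside promoters were. The inhibitory Smad7 had 2 lower peaks, at -0.66 and -0.60, and Smurf1, Bmp5 and Acvrl1 had 1 each, at -1.35, -2.08 and -0.52, while Gdf2, Bmper and Chrdl2 each had a higher peak, at 1.15, 1.33 and 0.97. By count, the wider pathway was close to the background of all peaks and of all promoter peaks. Under cyclic loess scaling, 1 of the 51 promoter peaks was lower (Gdf6), against 2.05% of all promoter peaks. There were 2 called higher, where 222 of all 17670 promoter peaks were.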

How the data were processed

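ATAC-seq libraries of MSCs cultured in hypoxia (2 libraries) or normoxia (2 libraries) were analysed. Per the methods of the study, the authors aligned reads to mm10 with Bowtie2, removed duplicates with Picard, and called 1 set of peaks over both groups with chromstaR. The deposited signal table is named RPKM by the authors. It was read as reads per 10000000 library reads without division by width, a constant that was assumed. Divided by 1 step per library, 100% of the values were whole reads within 0.01 read, which holds for any such constant. Whether reads were shifted for the Tn5 cut is not given in the sources used here.

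Values were divided by RLE size factors (the median ratio of a library to the geometric mean, over peaks with reads in every library). They were tested as log2(value + 1) with limma 3.58.1 (trend, robust, two-sided) in R 4.3.3. Fold changes are on this scale, which understates those of weak peaks. Adjusted p is Benjamini-Hochberg over 128055 peaks, and a peak was called at FDR under 0.01. The table holds no counts as such, so edgeR 4.0.16 served as an alternative, on the values and on whole reads. On simulated data for this comparison, over 128055 peaks, 94% of 200 peaks changed 4-fold were recovered. The simulation used 1 fixed spread and changed only stronger peaks. It does not show how often changes as small as those at the member promoters would be found. A promoter peak overlaps 1 kb on either side of a start of a protein-coding transcript. Named were every promoter peak, called peaks (or the peak with the lowest p) and the strongest other peak of each gene, and further receptor, Smad6 and Bmp2 peaks chosen after their values were seen. In the wider pathway, called promoter peaks were named by rule, and the called peaks outside promoters after their values were seen. Members and lists were chosen with earlier results of these data known. The motifs were chosen after the windows had been searched. No interval of counting error is given, since the spread between libraries was used. Replicates are as the labels and the study give them. With 2 libraries per group, the same-numbered libraries did not deviate together (correlation 0.01). A blood marker gene is not reported here.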

Additional observations from a re-analysis of the deposited data

How the results depend on the processing

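Limits. With 2 libraries per group, an exact permutation test of a single value cannot give a p under 0.333, and calls rest on the spread shared over all peaks. The share of reads in peaks differed between the groups, and so the scaling sets the direction of many members. Weak peaks hold few reads, which limits what can be seen there.

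The count of members called lower was 1 after RLE scaling. It was 19 as deposited, and 0 under equal totals, cyclic loess and quantile scaling and without the trend and robust options. The settings with 0 had, in this order, 23, 14, 10 and 10 peaks at an unadjusted p under 0.05 by limma. It was 2 with a pseudocount of 5, 4 with a mean value of at least 5, 2 by edgeR on whole reads and 8 at FDR under 0.05. Of all peaks tested, 30729, 1078, 1681, 922, 0, 6005, 7055 and 7296 were called lower, in the same order. For FDR under 0.05 the count over all peaks is not given. When single libraries were left out, the lone library was taken to vary as the other group does, and the 1 call was lost without either hypoxia library. The count called higher was 0 after RLE scaling, 3 under equal totals, 2 under cyclic loess and 1 under quantile scaling. It was 1 with a mean value of at least 5, 1 by edgeR on whole reads and 2 at FDR under 0.05. Of all peaks tested, 2262, 8798, 1819, 1159, 2884 and 3257 were called higher, in the same order and without FDR under 0.05. The median log2 fold change was -0.45 as deposited and 0.28 under equal totals, against -0.44 and 0.26 for all peaks. With library totals without mitochondrial reads, which rest on the assumed scale, 24 members were called lower and the median was -0.54. This alternative was chosen after seeing the data. Over all peaks 38593 were called lower here, and the median was -0.53. The count of 1 stayed without the widest Smad6 peak, also chosen after seeing the data.

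No pairing by replicate number was seen between libraries (correlation 0.01). With the replicate number as a block, 5 members were called lower and 2 higher, where 8468 and 3912 of all 128055 peaks were.

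Signs turned as follows. As deposited, the log2 fold changes were -0.18 at the downstream Bmp2 peak, -0.43 at the Bmpr2 peak chr1:59882501-59884300, -0.44 at the upstream Grem1 peak chr2:113763901-113766700, -0.0767 at the Id1 peak chr2:152726501-152727700 and -0.32 at the Id3 promoter. With totals without mitochondrial reads these were -0.26, -0.53, -0.54, -0.17 and -0.41, and the upstream Id2 peak was at -0.0106. Under equal totals, cyclic loess and quantile scaling, in this order, values were 0.27, 0.17 and 0.18 at Bmp4, 0.17, 0.12 and 0.12 at the Bmpr1a peak chr14:34507201-34509300, 0.11, 0.047 and 0.0502 at the Bmpr1b peak chr3:142048901-142052000, 0.22, 0.0863 and 0.0771 at the first Bmpr1b promoter, 0.16, 0.46 and 0.037 at the widest Smad6 peak, 0.0664, 0.11 and 0.12 at the Smad6 promoter, 0.28, 0.0727 and 0.0618 at the Id1 peak chr2:152729201-152730800, and 0.0962, 0.0469 and 0.0537 at the upstream Id3 peak. Under cyclic loess and quantile scaling they were 0.11 and 0.029 at the Id1 promoter, 0.21 and 0.0683 at the Id2 promoter, and -0.16 and -0.13 at the Bmpr2 peak chr1:59882501-59884300. When single libraries were left out, values ranged from -0.0741 to 0.52 at the downstream Bmp2 peak, from -0.16 to 0.14 at Bmp4, from -0.26 to 0.10 at the first Bmpr1b promoter, from -0.34 to 0.38 at the Bmpr2 peak chr1:59882501-59884300, from -0.13 to 0.20 at the upstream Grem1 peak and from -0.0757 to 0.0608 at the Id1 peak chr2:152729201-152730800. For each of these, the cause was not tested.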
